A study of Marchantia polymorpha and Arabidopsis thaliana with 40 samples.

Results

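The comparison set 8 ATAC-seq libraries whose deposited columns carry the name ABA against 8 whose columns carry the name CK, in 4 genotypes of the liverwort Marchantia polymorpha. All 16 libraries of the ABA table were members, out of 40 in the whole series, and every one of the 53390 regions of that table was tested. ATAC-seq maps open chromatin through the transposase Tn5, which inserts adapters where DNA is accessible, so a count per region is a measure of its accessibility. The ABA columns were those of hsfa1, hsfb1, dko and Tak-1, and the CK columns were those of the same genotypes, with 2 libraries in each of the 8 groups. The hsfa1 and hsfb1 plants were knockouts of a class A and a class B heat shock factor, dko lacked both genes, and Tak-1 was the wild type. Each mutant was represented by 1 line, so a difference of a genotype cannot be told apart from a difference of its line. All plants were 7-day gemmalings, young plants raised from asexual propagules, grown at 22 °C under continuous light. Nuclei were sorted from whole gemmalings by their DNA stain before tagmentation, so the values average over all cell types of the plant.

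The labels disagreed on which libraries had received the hormone. The set consisted of a treatment with 50 µM abscisic acid (ABA) for 2 h and its mock with 20% ethanol. The columns named ABA belonged to libraries that the sample titles and treatment labels call mock, and the columns named CK to libraries that these call ABA. The merged signal tracks followed the column names. The comparison below is therefore given as ABA columns minus CK columns, and its sign was not read as the direction of a response to ABA. The existence and the size of a difference do not depend on that choice.

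ABA is a plant stress hormone, known for its part in drought and desiccation tolerance. It binds PYR/PYL receptors, which then block group A protein phosphatases 2C and so release SnRK2 kinases to phosphorylate transcription factors. In Marchantia the hormone is known for desiccation tolerance and for the dormancy of gemmae. Heat shock factors of class A activate heat shock genes, and those of class B lack the activation domain of class A. The tables name no genome build and no genes, so the regions are given by their positions as deposited, and genes near them were not analysed here.

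The 16 libraries held between 32.7 and 47.0 M counts in the regions, with a median of 38.6 M. The top 10% of regions by mean CPM, the count scaled to a common library size, took 41.6 to 43.9% of the counts in the ABA columns and 41.1 to 44.3% in the CK columns, so the 2 sets of columns overlapped. The lowest share, 41.1%, belonged to CK column replicate 1 of hsfb1, whose fellow replicate had 43.3%. Spearman correlations between the 2 replicates of a group were 0.981 to 0.993 over regions, and were lowest in the hsfb1 CK columns. The labels do not say whether replicates came from separate cultures, so p-values measure the spread between these samples, which may be technical.

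**Figure D1:**
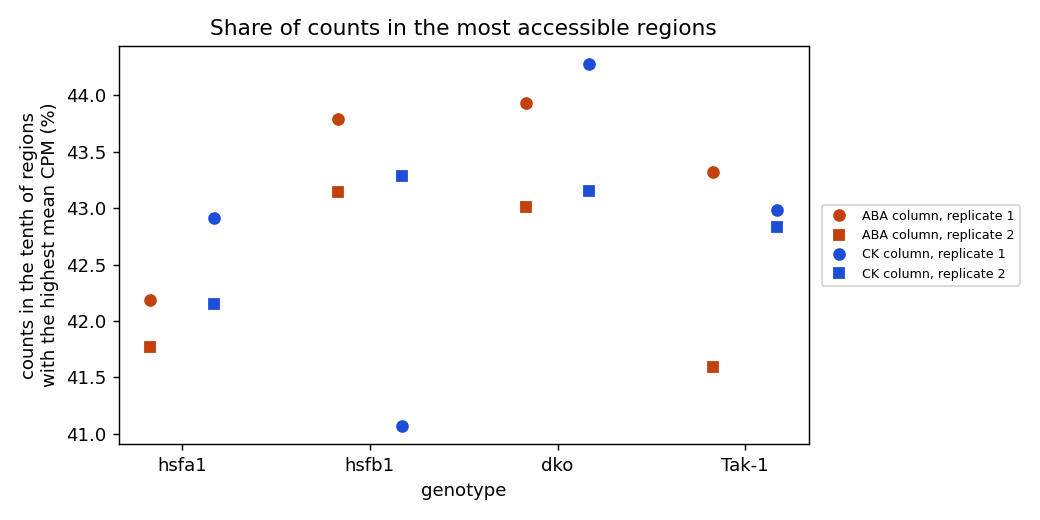
Share of each library's counts (y axis, %, not starting at 0) in the top 10% of regions by mean CPM, by genotype (x axis). Points are libraries, coloured by column name and shaped by replicate number. The hsfb1 CK column replicate 1 lies lowest at 41.1%, and the ABA and CK columns overlap.

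Accessibility differed little between the ABA and the CK columns once counts were scaled between libraries. Such scaling leaves differences relative to most regions, so a shift common to all regions would not show. Over the 4 genotypes, with genotype as a block, 36 of 53390 regions passed an adjusted p of 0.05 (edgeR quasi-likelihood F test, Benjamini-Hochberg adjustment over all regions), which is 0.0674% of those tested. Of these, 34 were lower in the ABA columns, 0.0637% of regions, and 2 were higher, 0.00375%. Before adjustment, 3177 regions (5.95%) had a p under 0.05. No region differed by more than 2-fold, and 11 differed by more than 1.5-fold, of which 7 passed the test. The middle of the distribution was narrow: the 1st and 99th percentiles of the log2 difference were -0.26 and 0.24, and the median was 0.00.

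The precision was enough to bound most of these relative differences. The median half-width of the 95% interval of the log2 difference was 0.14. In 52912 regions (99.1%) the whole interval lay within a 1.5-fold change either way, and in 53387 it lay within 2-fold. The count of regions past the threshold depended on single libraries. It was 16 without dko ABA column replicate 1 or without dko CK column replicate 2, 18 without hsfa1 ABA column replicate 1, 19 without Tak-1 CK column replicate 1 or hsfa1 CK column replicate 2, 22 without hsfa1 CK column replicate 1, and 23 without hsfa1 ABA column replicate 2. DESeq2 called 121 regions, 102 lower and 19 higher in the ABA columns, and included all 36.

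**Figure D2:**
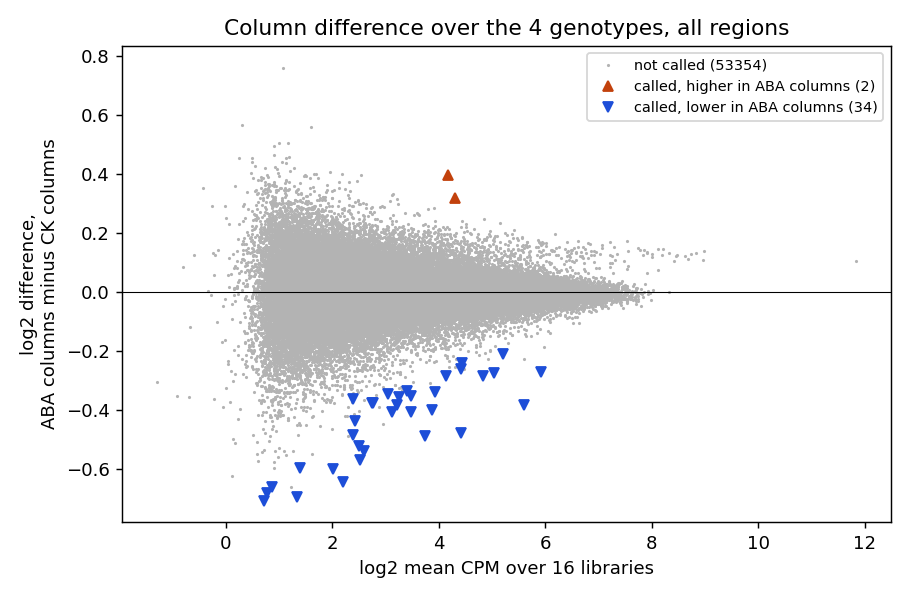
Log2 difference, ABA columns minus CK columns over the 4 genotypes (y axis), against log2 mean CPM of the 16 libraries (x axis), for all 53390 regions. Triangles are the 36 regions past the threshold, of which 34 point down at -0.71 to -0.21 and 2 point up at 0.32 and 0.40, while the other regions (grey) spread around 0.

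Library against library, the columns differed about as much as replicates did. The median absolute log2 difference between an ABA library and a CK library was 0.103 in hsfa1, 0.137 in hsfb1, 0.118 in dko and 0.100 in Tak-1. Between the 2 ABA libraries of a genotype it was 0.104 in hsfa1, 0.128 in hsfb1, 0.123 in dko and 0.116 in Tak-1. Between the 2 CK libraries it was 0.102 in hsfa1, 0.164 in hsfb1, 0.135 in dko and 0.0920 in Tak-1. In hsfa1, hsfb1 and Tak-1 the value across columns thus lay between those of the 2 replicate pairs, and in dko it lay below both.

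The 34 regions called lower in the ABA columns had log2 differences of -0.71 to -0.21 with a median of -0.39, against 0.00 over all regions. Within each genotype their median was -0.44 in hsfa1, -0.48 in hsfb1, -0.43 in dko and -0.32 in Tak-1. The sign of all 36 regions was the same in the 4 genotypes; over all regions 7.78% were lower and 6.88% higher in each of the 4 genotypes. In 30 of the 34 lower regions and in both higher ones the ABA and CK libraries did not overlap within any genotype; over all regions this held for 170 (0.318%) in the lower and 54 (0.101%) in the higher direction. In the other 4 called regions they did not overlap in 3 genotypes. Taking all 8 ABA columns against all 8 CK columns, 14 regions of the table (0.0262%) lay wholly below and 3 (0.00562%) wholly above, and 9 of the 34 were among those 14. The same 16 libraries gave the calls, so the shared sign describes the called regions and was not tested apart from them.

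**Figure D3:**
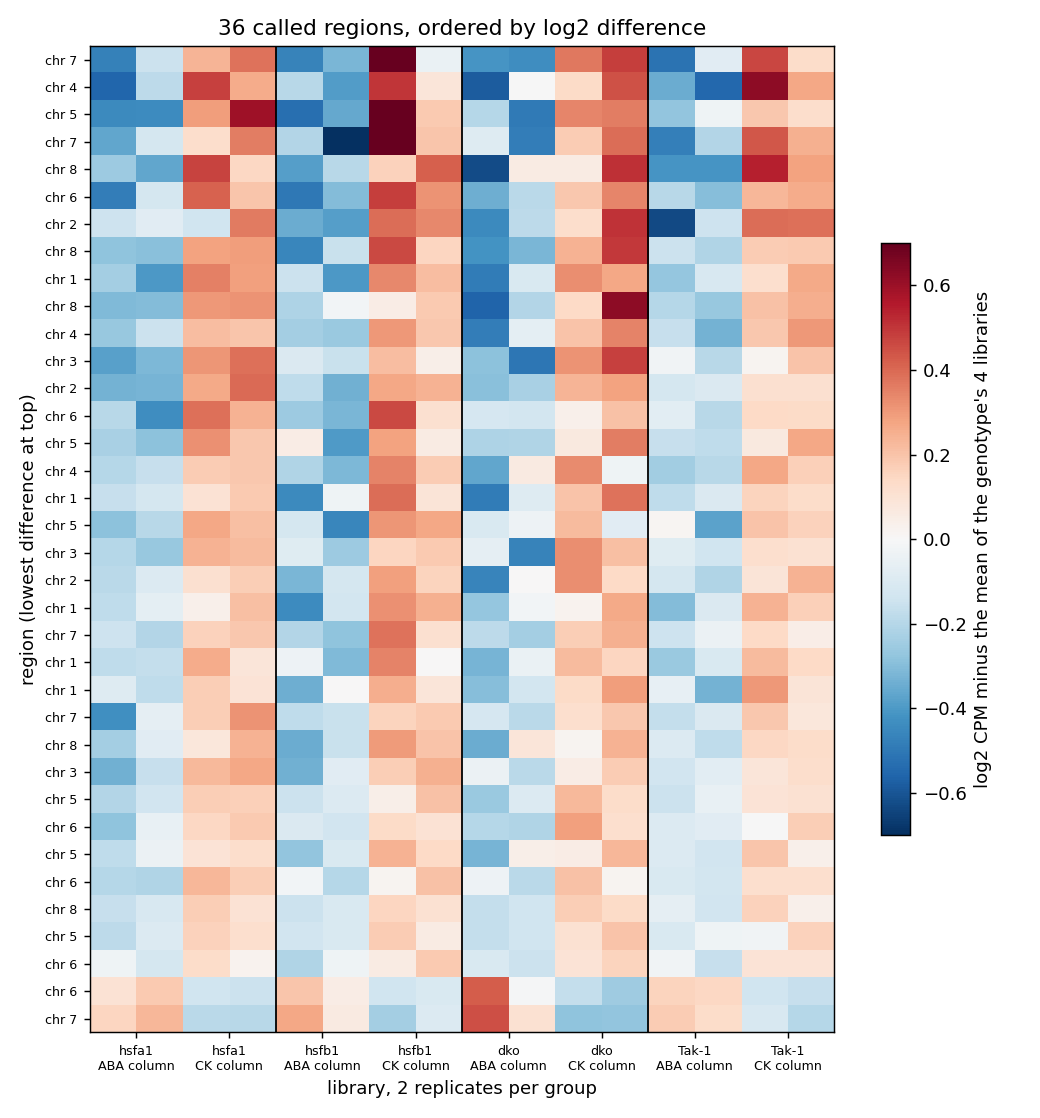
Each library's log2 CPM minus the mean of its genotype's 4 libraries (colour; values beyond 0.7 either way are drawn at the end of the scale), for the 36 called regions (down, ordered by log2 difference and labelled by chromosome) and the 16 libraries (across, in groups of 2). The ABA columns are mostly blue in the upper 34 regions, with a few pale exceptions, and mostly red in the lowest 2.

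The region with the smallest p-value was chr2:23983138-23983785. It had 17.7 and 17.8 CPM in the hsfa1 ABA columns, against 26.8 and 29.3 CPM in the hsfa1 CK columns. In hsfb1 it had 13.9 and 12.4 CPM in the ABA columns and 19.0 and 18.6 CPM in the CK columns. In dko it had 17.3 and 18.1 CPM in the ABA columns and 25.0 and 25.8 CPM in the CK columns, and in Tak-1 22.5 and 22.8 CPM against 26.5 and 26.5 CPM. The ABA libraries lay below the CK libraries in each genotype, while the 8 and 8 overlapped because the level itself differed between genotypes. The log2 difference over the 4 genotypes was -0.48 ± 0.05 (SE), with an adjusted p of 2.52e-04 by edgeR. Within hsfa1 alone it was -0.66 with an adjusted p of 0.00856, the only call that edgeR gave in any single genotype, and 0 regions were called there when only the 4 hsfa1 libraries were fitted.

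At chr4:9152430-9152931 all 8 ABA columns lay below all 8 CK columns, with a lowest, median and highest value of 9.12, 11.1 and 12.2 CPM in the ABA columns and 14.7, 15.6 and 16.5 CPM in the CK columns. The log2 difference was -0.49 ± 0.06 (SE) with an adjusted p of 4.48e-04 by edgeR. Its level and its difference were alike across genotypes, with log2 differences of -0.41 in hsfa1, -0.50 in hsfb1, -0.54 in dko and -0.50 in Tak-1.

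A pair of called regions 83 bases apart lay at chr8:17891543-17891722 and chr8:17891805-17891986. The second had 3.81, 4.69 and 5.39 CPM as lowest, median and highest values in the ABA columns and 5.82, 6.88 and 7.70 CPM in the CK columns, with no overlap. Its log2 difference was -0.57 ± 0.07 (SE), adjusted p = 0.00165 by edgeR. The first had 3.29, 4.79 and 5.79 CPM in the ABA columns and 5.34, 6.49 and 7.63 CPM in the CK columns, which overlapped, with a log2 difference of -0.52 ± 0.09 (SE). The region at chr1:24023373-24023669 had 3.63, 5.00 and 5.80 CPM in the ABA columns and 6.14, 6.77 and 8.73 CPM in the CK columns, again without overlap, and its log2 difference was -0.54 ± 0.07 (SE). At chr6:22478313-22478477 the values were 2.63, 3.12 and 4.01 CPM in the ABA columns and 4.06, 4.91 and 5.80 CPM in the CK columns, also without overlap, and the log2 difference was -0.60 ± 0.08 (SE).

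Accessibility was called higher in the ABA columns in 2 regions. At chr7:8371203-8371789 the lowest, median and highest values were 17.7, 20.1 and 23.9 CPM in the ABA columns and 13.9, 15.3 and 17.8 CPM in the CK columns. A single pair of libraries of different genotypes overlapped there, and within each genotype none did. The log2 difference was 0.40 ± 0.05 (SE), adjusted p = 0.00178 by edgeR. The other region, chr6:17537094-17537682, had 15.2, 21.7 and 26.6 CPM in the ABA columns and 12.8, 17.9 and 21.7 CPM in the CK columns. It had a log2 difference of 0.32 ± 0.05 (SE) and an adjusted p of 0.0149 by edgeR. In dko, where its 2 ABA libraries were farthest apart, the ABA columns had 20.5 and 15.2 CPM and the CK columns 13.6 and 12.8 CPM. The third region by p-value in that direction, chr5:20124265-20124598, had a log2 difference of 0.33 and missed the threshold with an adjusted p of 0.0593.

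**Figure D4:**
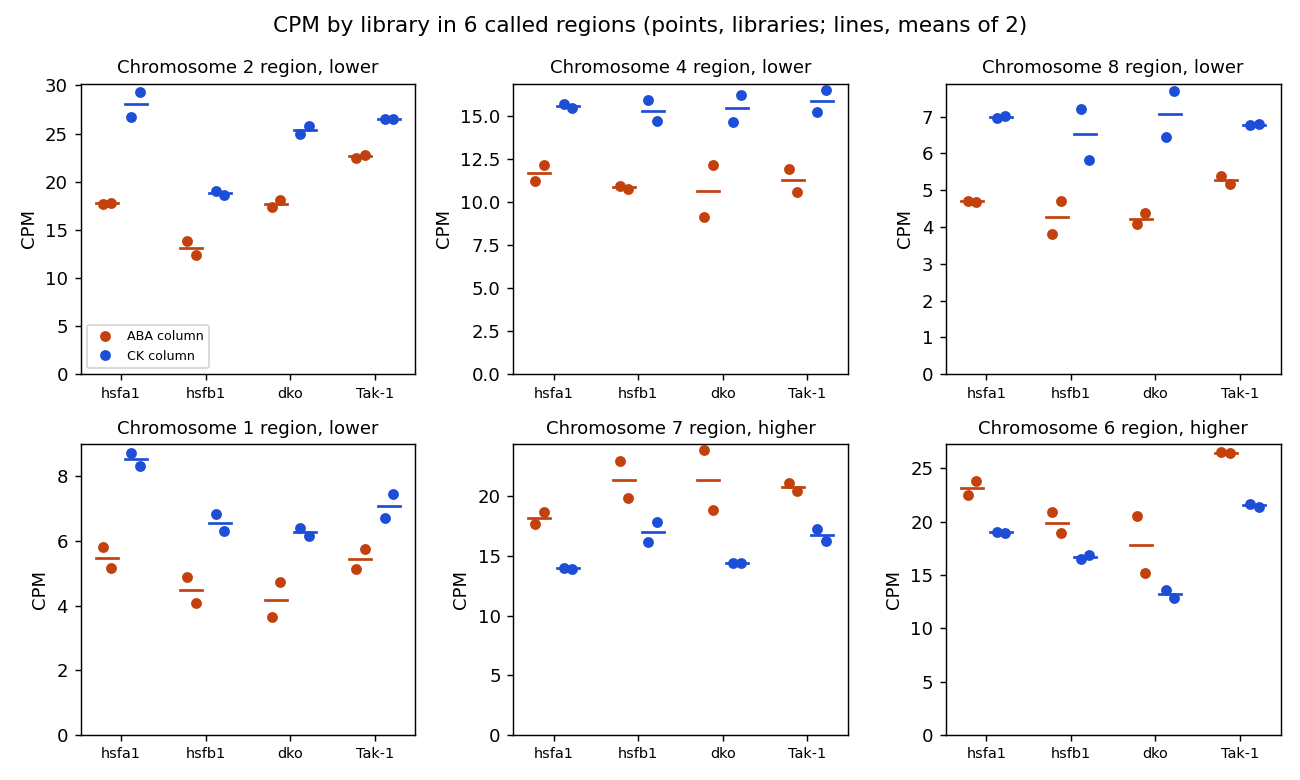
CPM per library (y axis, from 0) in 6 called regions by genotype (x axis); points are libraries, and lines are means of 2. In the 4 lower regions the ABA columns lie below the CK columns of their genotype, and in the 2 higher regions above.

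The largest differences among called regions were in regions with few counts. The lowest log2 differences were -0.71 at chr7:2613602-2613680, -0.70 at chr4:22325256-22325397, -0.68 at chr5:18953329-18953406 and -0.66 at chr7:12300963-12301038. At the first of these the ABA columns averaged 1.25 ± 0.29 CPM and the CK columns 2.05 ± 0.41 CPM (SD, n = 8 each). The call was lost in 13, 4, 13 and 15 of the 16 fits that left out 1 library, in that order, and in 13 at chr2:11400895-11401013, where the log2 difference was -0.60. The region at chr8:6427600-6427735, by contrast, kept its call in all 16 fits. It averaged 3.59 ± 0.86 CPM in the ABA columns and 5.56 ± 0.96 CPM in the CK columns (SD, n = 8 each), with a log2 difference of -0.64 ± 0.10 (SE). Of the 36 regions, 14 kept their call whichever library was left out. Calls kept in at most 3 of the 16 fits numbered 8, of which 4 had a higher mean count per library than any of the 5 regions with the lost calls just given.

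The called regions were spread over the genome. On chromosomes 1 to 8 there were 5, 3, 3, 3, 6, 5, 4 and 5 lower regions, and the 2 higher ones lay on chromosomes 6 and 7. Called regions had a median span of 429 bases, ranging from 75 to 1397, against a median of 286 bases over all regions. Their mean count per library had a median of 375, against 344 over all regions. Besides the pair on chromosome 8, pairs of lower regions lay 7188 bases apart at chr5:17031821-17032389 and chr5:17039577-17040164 and 10952 bases apart at chr8:3641715-3642548 and chr8:3653500-3654098. These pairs were picked out after their values were seen. Uncalled regions within 10 kb of a lower region numbered 261, and 158 of them (60.5%) had a log2 difference below 0, against 49.4% of all regions. Their median log2 difference was -0.02.

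Taken one genotype at a time, the columns could hardly be distinguished. The edgeR test called 1 region in hsfa1 (0.00187%), the region on chromosome 2 described above, and 0 in hsfb1, dko and Tak-1. Before adjustment, a p under 0.05 was found for 1440 regions (2.7%) in hsfa1, 4286 (8.03%) in hsfb1, 1951 (3.65%) in dko and 952 (1.78%) in Tak-1. DESeq2 called 3 regions in hsfa1, 1 in hsfb1, 3 in dko and 0 in Tak-1. The hsfa1 call was lost in edgeR without its ABA column replicate 1, its ABA column replicate 2 or its CK column replicate 2, with 875, 1650 and 1294 regions at an unadjusted p under 0.05, and in dko 1 region was called without ABA column replicate 1. In hsfb1 the count was 93, with 66 lower and 27 higher, when CK column replicate 2 was left out, which leaves CK column replicate 1 as the lone CK library of that genotype. That library is the one with the low share of counts in the most accessible regions. In the top 10% of regions by mean CPM the median log2 difference in hsfb1 was 0.06, and in the lowest 10% it was -0.13. In the other genotypes these medians were -0.04 and 0.06 in hsfa1, -0.02 and 0.03 in dko, and -0.02 and 0.04 in Tak-1. With the share as a covariate the regions at an unadjusted p under 0.05 in hsfb1 fell to 1652, while those in hsfa1 rose to 2220, in dko to 2522 and in Tak-1 to 1160, and its part in the differences was not tested further.

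In the fit without a replicate block, no region passed a test of its column difference between genotypes. The interaction with Tak-1 passed the edgeR test in 0 regions for hsfa1, for hsfb1 and for dko, and the joint test of the 4 genotypes in 0 regions. The numbers at an unadjusted p under 0.05 were 738 (1.38%) for hsfa1, 2858 (5.35%) for hsfb1, 1037 (1.94%) for dko and 1089 (2.04%) for the joint test. DESeq2 called 0 in each. The smallest adjusted p was 0.816, for hsfb1. Among the 36 called regions the interactions reached an unadjusted p under 0.05 in 2 for hsfa1, 1 for hsfb1 and 3 for dko. These p-values do not show that the genotypes were alike: the median SE of a log2 difference within a genotype was 0.13 to 0.14. An interaction compares 2 such differences, so its SE is larger. Over all 53390 regions the column differences of any 2 genotypes correlated at a Pearson r between -0.15 and 0.18, which describes regions of the same libraries and has no p-value.

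The same regions could be followed in a separate set of libraries of the 4 genotypes, which compared 1 h at 37 °C with 22 °C and carries another batch label. By an overlap of at least 50% of the shorter region, 47999 of the 53390 regions had a counterpart there, and so did 31 of the 34 lower regions and both higher ones. The 31 matched 30 regions of the heat table, since the 2 neighbours on chromosome 8 shared 1.

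Many of the lower regions also lost accessibility with heat. Here and below, regions are said to fall or rise with heat only where the edgeR heat test gave an adjusted p under 0.05. Of the 31, accessibility fell with heat in 13 in hsfa1 (41.9%), 12 in hsfb1 (38.7%), 15 in dko (48.4%) and 14 in Tak-1 (45.2%). Among all matched regions it fell in 18.3% in hsfa1, 7.73% in hsfb1, 14.3% in dko and 13.4% in Tak-1. It rose in 7, 2, 4 and 1 of the 31 in the same order, where the shares of all matched regions were 19.9%, 5.51%, 13.3% and 10.4%. The median heat change of the 31, past the threshold or not, was -0.21 in hsfa1, -0.23 in hsfb1, -0.30 in dko and -0.32 in Tak-1 on the log2 scale. Accessibility fell in all 4 genotypes in 7 of the 31 (22.6%), against 2.10% of all matched regions. It fell in 1 or more genotypes in 19 of the 31 (61.3%), against 30.8%. These are counts beside a background; the regions had been chosen on their column difference, and no test was made of the overlap.

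The split of the heat calls depended on the scaling in Tak-1. With TMM factors 5344 regions fell and 4886 rose with heat there, whereas with library totals alone 2067 fell and 7916 rose, and the median of all regions shifted by 0.16 on the log2 scale. With library totals, 8 of the 31 fell and 5 rose in Tak-1, against 5.37% and 19.4% of all matched regions. The numbers that fell were then 11 in hsfa1, 10 in hsfb1 and 15 in dko, and 6 of the 31 fell in all 4 genotypes (19.4%, against 1.08% of all matched regions).

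The 7 regions that fell with heat in all 4 genotypes included 4 of those described above. The log2 heat change at chr4:9152430-9152931 was -0.96 in hsfa1, -0.73 in hsfb1, -1.30 in dko and -0.86 in Tak-1. For the neighbouring pair on chromosome 8 the shared heat region gave -0.95 in hsfa1, -1.02 in hsfb1, -1.47 in dko and -1.16 in Tak-1. At chr1:24023373-24023669 the changes were -1.56 in hsfa1, -1.27 in hsfb1, -1.83 in dko and -1.22 in Tak-1. The remaining 3, singled out after their values were seen, were chr1:26254118-26254601, chr3:19223756-19224029 and chr1:1757443-1757734, with column differences of -0.35, -0.48 and -0.37. Their heat changes ran from -1.81 to -0.49.

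Other called regions fell with heat in fewer genotypes, rose in 1 or more, or passed no heat test. At chr2:23983138-23983785, lower in the ABA columns, accessibility rose with heat by 0.68 in hsfa1 and 0.38 in dko, and the changes of 0.20 in hsfb1 and -0.01 in Tak-1 did not pass the test. Of the 2 regions that were higher in the ABA columns, chr7:8371203-8371789 rose with heat in all 4 genotypes, by 0.86 in hsfa1, 0.85 in hsfb1, 1.20 in dko and 0.60 in Tak-1. At chr6:17537094-17537682 the heat change was 0.39 in hsfa1 and 0.37 in Tak-1, both past the threshold, and 0.03 in hsfb1 and 0.35 in dko, neither past it.

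**Figure D5:**
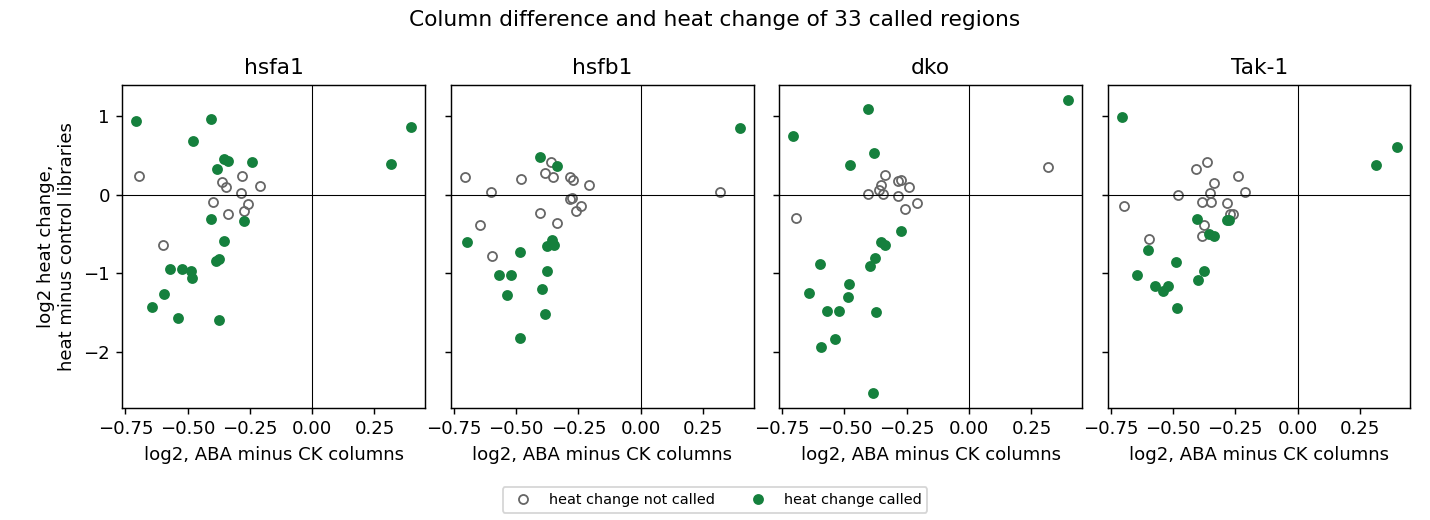
Log2 heat change, heat minus control libraries (y axis), against the log2 difference of ABA minus CK columns over the 4 genotypes (x axis), for the 33 called regions with a counterpart in the heat table, 1 panel per genotype. Filled points passed the heat test. Of the 31 lower regions, 12 to 15 passed it as falling with heat in each genotype and 1 to 7 as rising.

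The regions could also be chosen by their heat change and read in the columns. Of all matched regions, 31 (0.0646%) were called lower and 2 (0.00417%) called higher in the ABA columns. Of the 1007 ABA-table regions that fell with heat in all 4 genotypes, 7 were called lower in the ABA columns (0.695%). The median column difference of the 1007 was 0.01, with 474 below 0, called or not. The 744 regions that rose with heat in all 4 genotypes had 372 below 0 and 1 that was called higher in the ABA columns. The 158 regions that fell by more than 2-fold with heat in Tak-1 had a median column difference of -0.03 and included 6 that were called lower in the ABA columns (3.80%). The 533 that rose by more than 2-fold in Tak-1 had a median column difference of 0.00, and 258 of them were below 0.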

How the data were processed

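The authors deposited a table of whole-number counts per region for the 16 Marchantia libraries of the ABA set, with no normalization, and a second table of counts for the heat set, per the file headers. Per the submitters' processing notes, tools included MACS2 2.2.7.1 and featureCounts of Subread 2.0.6, and also Bowtie2 2.4.4, bedtools, deepTools, fastp 0.24.0 and SAMtools, with FastQC 0.11.9. The genome build, the treatment of duplicates, read filters, whether peaks were called on pooled libraries, and whether region starts count from 0 or 1 are not given in the sources used here. A share of 0.531 to 0.633 of a library's counts were even numbers, and with all counts halved and rounded up there were 36 calls, 35 of them shared. No Tn5 shift could be checked on counts. More counts per region narrow the counting error: regions had a median of 344 counts per library.

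From the counts, edgeR 4.0.16 with limma 3.58.1 in R 4.3.3 was fitted to all 16 libraries with TMM factors (0.973 to 1.05), genotype as block and the column name as the effect. Tests within genotypes and interactions came from a fit with a mean per group. The quasi-likelihood F test was two-sided, and p-values were adjusted by Benjamini and Hochberg over the 53390 regions of the table, with a threshold of 0.05. The filterByExpr filter removed 0 regions. CPM use TMM factors with no pseudocount. Log2 differences between columns are from the fit, and SE is the absolute log2 difference over the square root of F. Differences between single libraries and the deviations of replicates are instead from log2 CPM with a small pseudocount. Regions were matched between tables with GenomicRanges 1.54.1. The heat table (40873 regions) was fitted in the same way. The scripts were tested on simulated data. Alternatives were DESeq2 1.42.0, library totals, loess offsets, filters on low counts, halved counts, replicate blocks and leaving out libraries.

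The members and lists were chosen with earlier results of these data known. Regions were named where they averaged 50 or more counts a library, and were the 10 lowest and 10 highest log2 differences among called regions, the 3 smallest p-values in each direction, calls within a genotype and the 4 smallest p-values of the joint interaction, and others are marked where they appear. Lists of ABA and heat shock genes were set up but not used here, since the tables name no build with which to place genes. No region sequence was used here.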

Additional observations from a re-analysis of the deposited data

Results flagged for a closer look

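Among the 4 regions with the smallest joint interaction p-values, 3 drew attention because the ABA libraries lay wholly above the CK libraries in 1 or more genotypes and wholly below them in another. With 2 libraries a group, 10098 of all regions (18.9%) showed such opposite directions. Their differences between genotypes did not pass the test itself, with an adjusted p of 1.00 in edgeR's joint interaction test, and the opposite directions were not tested otherwise. At chr2:12229552-12229630 the log2 difference, ABA columns minus CK columns, was 0.84 in hsfa1, -0.53 in hsfb1 and 0.39 in Tak-1. Its libraries had 3.26 and 2.87 CPM in the hsfa1 ABA columns and 1.77 and 1.65 CPM in the hsfa1 CK columns, whereas hsfb1 had 1.91 and 1.84 CPM in the ABA columns and 2.79 and 2.64 CPM in the CK columns. At chr2:10202199-10202729 it was 0.10 in hsfa1, -0.38 in hsfb1, 0.20 in dko and 0.30 in Tak-1. At chr7:15526238-15526344 it was 0.60 in hsfa1, -0.70 in hsfb1, 0.56 in dko and -0.27 in Tak-1. The hsfb1 sign was negative in each of the 3, with both hsfb1 CK libraries above both hsfb1 ABA libraries. One of these CK libraries, replicate 1, had the lowest share of counts in the most accessible regions, 41.1%. The part of that library in these values was not tested.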

How the results depend on the processing

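None of the 15 regions named for the difference over the 4 genotypes changed sign under any setting run. They had been chosen on these same libraries, so a kept sign was likely beforehand and is no separate support. The 4 regions named for the joint interaction, whose difference over the 4 genotypes was not called, took the other sign in 6 of 33 fits at chr7:15526238-15526344 and in 1 of 33 at each of the other 3. Over the 4 genotypes the 36 calls became 121 with DESeq2 (19 higher and 102 lower in the ABA columns) and 22 with library totals. They became 44 with loess offsets (2 higher, 42 lower). The average of the 4 genotypes in the fit with a mean per group gave 24 (2 higher, 22 lower). The count was 9 without the Tak-1 libraries, 2 without hsfa1, 15 without hsfb1 and 14 without dko, and 16 to 35 when 1 library was left out. Settings without some libraries had fewer samples, and the cause of the other shifts was not tested. Among settings added after seeing the data, the share of counts in the top 10% of regions as a covariate gave 108 (14 higher, 94 lower). The deviations of same-numbered replicates correlated at r = 0.44 in hsfa1, -0.12 in hsfb1, 0.33 in dko and 0.20 in Tak-1. Replicate numbers are not known to pair libraries, and the main fit did not pair them. The replicate block gave 67 calls by genotype and number (8 higher, 59 lower), 56 as 1 term, and, added after seeing the data, 64 with loess offsets. With the hsfb1 numbers crossed, also added after seeing the data, the replicate block gave 95 over the 4 genotypes, 3 in hsfa1, 1198 in hsfb1, 4 in dko, 927 for the hsfb1 interaction and 746 for the joint one. Within hsfa1 the count was 3 with DESeq2, 0 with only its 4 libraries and 0 to 1 with a library left out; within hsfb1 it was 1 with DESeq2 and 0 to 93 with a library left out; within dko it was 3 and 0 to 1 in the same order. Single genotypes could not be read below the spread of 2 libraries a group.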

Other observations

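Chromosome U, the female sex chromosome of Marchantia, held 26 regions of the table, and chromosome V, the male one, held 144. The counts do not show whether reads placed on U came from that chromosome. All 26 regions on U had a log2 difference above 0, with a median of 0.14 and a range of 0.04 to 0.22. None passed the edgeR test (0 called, 0 at an unadjusted p under 0.05, 0 by DESeq2, smallest adjusted p 0.989). The summed CPM of the 26 varied by library more than by column: its lowest, median and highest values were 351, 631 and 954 in the ABA columns and 318, 568 and 831 in the CK columns. In hsfb1 it was 954 and 640 in the ABA columns and 351 and 605 in the CK columns, where the lone value of 351 belongs to CK column replicate 1. In hsfa1 it was 650 and 360 in the ABA columns and 619 and 318 in the CK columns, in dko 711 and 622 against 831 and 618, and in Tak-1 550 and 351 against 531 and 471.

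The 54 regions with a mean of at least 200 CPM, chosen on the mean of all 16 libraries after the plot of all regions had been seen, had log2 differences of -0.05 to 0.15, with 35 above 0. EdgeR called 0 of them, with 0 at an unadjusted p under 0.05 and 0 by DESeq2. They took 1.31 to 2.36% of a library's counts in the ABA columns and 1.33 to 2.15% in the CK columns, so the columns overlapped. Of the 946 regions with a mean of 100 to 200 CPM, 387 had a log2 difference above 0. Among all regions 49.4% were below 0.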
